A study of Equus caballus with 4 samples.

Results

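Genes of the vascular endothelial growth factor (VEGF), platelet-derived growth factor (PDGF) and angiopoietin families were followed in differentiating equine satellite cells (ESC) that received β-hydroxy-β-methylbutyrate (HMB), a leucine metabolite, before an oxidative insult. The set comprised 10 genes, *vegfa*, *vegfb*, *vegfc*, *pgf*, *pdgfa*, *pdgfc*, *pdgfra*, *pdgfrb*, *angpt1* and *angptl4*. Every non-control probe of the array that carried one of these symbols was taken, which gave 23 of the 43603 non-control probes. They belonged to 8 of the 10 genes, among 13350 gene symbols on the array. No probe carried the symbol *pdgfa*, and no value is given for it. No probe carried the symbol *angptl4* either, but 1 probe was named as *angptl4* in its description, and a further *pdgfc* probe was found in the same way. These probes are described separately and stay out of the counts of the 23.

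Satellite cells are the resident stem cells of skeletal muscle, and the ESC came from m. semitendinosus of healthy young stallions. In the HMB-treated group, HMB (50 µM) was added after the second day of differentiation for 24 h and H2O2 (3 mM) was present for the last 1 h. The control received H2O2 in the same way without HMB, so both groups were exposed to H2O2, no array held cells free of it, and RNA was taken on day 3 of differentiation. Each of 4 Agilent horse arrays carried RNA of the HMB-treated group in Cy5 and control RNA in Cy3, and each gave 1 ratio per probe (n = 4). The dyes were not swapped, so an effect of dye and an effect of HMB cannot be told apart on these arrays. Cultures had been prepared from several horses and one was selected for its viability and fusion, and the labels name the 4 pairs biological replicates without giving a horse for any of them. Every label gives the control the same replicate number, and p-values therefore measure the spread between these arrays, which may be technical in part.

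VEGF ligands are secreted dimers that bind receptor tyrosine kinases on endothelial cells, VEGF-A and PGF for blood vessels and VEGF-C for lymphatic vessels, while VEGF-B is linked to fatty acid handling. PDGF ligands act mainly on mesenchymal cells, and PDGFRA marks the fibro-adipogenic progenitors of muscle whereas PDGFRB marks pericytes. Angiopoietin-1 is the agonist of the TEK receptor, and ANGPTL4, despite its name, is known above all as an inhibitor of lipoprotein lipase and as a target of PPAR and of hypoxia.

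The sequences below show how many separate stretches of RNA stood behind the main values. They were read from the deposited scanner files, run 5′ to 3′, and are given with positions on EquCab1 as the file headers state them. Names of probes on this array begin with A_69_, which is left off. No exon is assigned to probes in the files. For *vegfa*, capitals mark the 34 bases, chr20:36143929-36143962 (plus strand), that all 10 probes shared; the probes lay within 86 bases, chr20:36143903-36143988, and the first and the last of them were
vegfa P005165: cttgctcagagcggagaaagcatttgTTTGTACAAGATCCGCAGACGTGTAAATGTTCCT
vegfa P000901: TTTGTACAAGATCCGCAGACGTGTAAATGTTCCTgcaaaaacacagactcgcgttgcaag
The stretch belongs to the coding sequence of the heparin-binding region, which the shortest common VEGF-A isoform lacks. For *vegfc*, capitals mark the 20 bases that neighbouring probes shared near the 3′ end of the coding sequence, and the 3 probes were
vegfc P016023: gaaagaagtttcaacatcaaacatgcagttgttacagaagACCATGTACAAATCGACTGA
vegfc P016022: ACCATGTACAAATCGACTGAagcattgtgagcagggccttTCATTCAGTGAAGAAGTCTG
vegfc P016021: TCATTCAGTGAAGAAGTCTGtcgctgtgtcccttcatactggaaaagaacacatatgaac
The first of these 60-base probes spanned 3084 bases of the genome, chr27:31330928-31334011, and the other probes lay at chr27:31333992-31334051 and chr27:31334032-31334091, all on the plus strand. For the PDGF receptors, probes for the intracellular C-terminal tails are shown, in lower case throughout, because *pdgfra* was called and *pdgfrb* was not:
pdgfra P110266: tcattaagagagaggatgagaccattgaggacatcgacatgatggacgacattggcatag
pdgfrb P061881: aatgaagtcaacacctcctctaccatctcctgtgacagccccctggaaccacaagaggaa
The *pdgfra* probe lay at chr3:71551637-71551696 on the minus strand and the *pdgfrb* probe at chr14:27127233-27127292 on the plus strand.

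A probe was tested when 1 or both channels were well above background on all 4 arrays, and this held for 24669 probes. It was called at a limma adjusted p of 0.05 or less and a fold change (FC) of 1.3 or more. The lowest signals counted as well above background were 19.5 to 22.7 in Cy3 and 18.7 to 31.3 in Cy5, depending on the array, in arbitrary intensity units after background subtraction and normalization. For these limits the arrays had also been set to a common intensity distribution, unlike the signals printed below. Of the 23 probes, 19 were tested, and 13 of these were called higher with HMB, 2 lower and 4 not at all. That is 78.9% of the tested probes, beside 28.6% of all tested probes on the array (12.1% higher and 16.4% lower). However, 5 of the 13 called higher (4 of *vegfa* and 1 of *pdgfra*) passed the filter through the HMB-treated channel, in which they were high, and their calls are given no weight. Of the 14 probes whose control and HMB-treated signals were both well above background on every array, 8 were called higher and 2 lower, or 71.4%, beside 25.7% of all such probes (11.1% higher and 14.6% lower). Of these 8, 4 were *vegfa* probes that read the same 34 bases, so the share over probes counts 1 gene many times. Counted by gene, on the tested probe with the brightest signal, which had both channels well above background for each member, 7 genes were tested, and *pdgfra*, *vegfc* and *vegfa* were higher, *pdgfc* was lower, and *pgf*, *pdgfrb* and *vegfb* were not called. The share called was 57.1% of these genes, beside 27.3% of all tested gene symbols (10.0% higher and 17.2% lower). The median log2 ratio was 0.19 over the 7 genes, beside -0.09 over all symbols. The members were chosen with earlier results of these data known, so these shares and medians are descriptions only. None of the spots of the 23 probes carried an outlier mark or was saturated on any array.

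**Figure D1:**
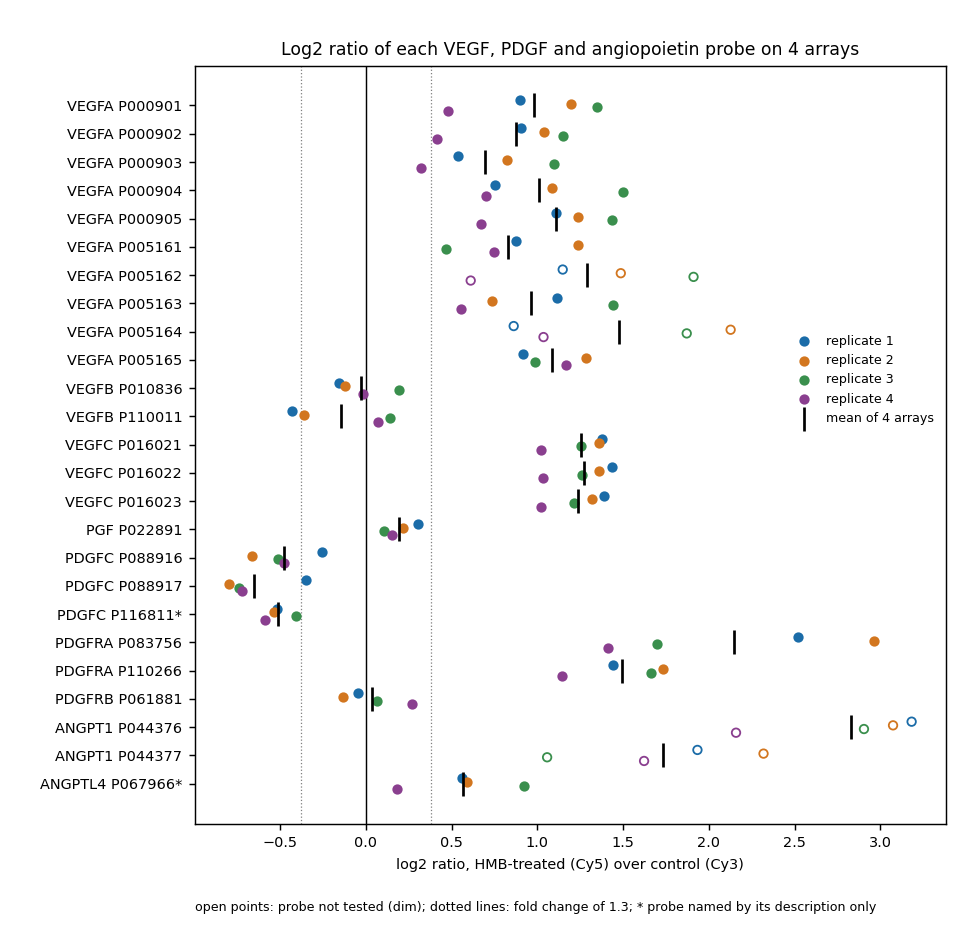
Log2 ratio of the HMB-treated group (Cy5) over the control (Cy3) for each probe, with 1 point per array and a bar at the mean of 4 arrays. The 3 vegfc probes lie between 1.02 and 1.44 on every array, the vegfb and pdgfrb probes lie on both sides of 0, and the pdgfc probes lie below 0 on all arrays.

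Among the VEGF ligands, *vegfc*, the main lymphangiogenic member, was higher with all 3 of its probes. Its probe P016021 had log2 ratios of 1.38, 1.36, 1.25 and 1.02 on arrays 1 to 4. The control signals behind them were 1751, 1471, 2176 and 1677, and the signals of the HMB-treated group were 4550, 3773, 5182 and 3400. Every HMB-treated signal was above every control signal, far from the background. The mean ratio was 1.25 ± 0.16 (SD, n = 4), and the FC was 2.38 (limma adjusted p = 9.72e-05). The neighbouring probe P016022 gave ratios of 1.44, 1.36, 1.26 and 1.04, with a mean of 1.27 ± 0.17 and an FC of 2.41 (limma adjusted p = 1.02e-04). The third probe, P016023, which joins sequence from separate parts of the gene, gave 1.39, 1.32, 1.21 and 1.02, with a mean of 1.24 ± 0.16 and an FC of 2.36 (limma adjusted p = 9.57e-05). Array 4 gave the lowest and array 1 the highest ratio with each probe, and the 3 probes differed less from each other on an array than the arrays did. Scaling to the spike-in RNA, which moved the median of all tested probes to -0.56, lowered the ratios to 0.75 to 0.78, and they were still called.

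*vegfa*, the principal angiogenic ligand of the family, was higher with the 4 probes for which both groups were well above background on every array, at low signals. Its brightest probe, P000904, had ratios of 0.75, 1.09, 1.50 and 0.70, from control signals of 56.7, 37.8, 40.3 and 52.9 and HMB-treated signals of 95.6, 80.2, 114 and 85.9. The channels did not overlap, and array 3 stood highest. The mean was 1.01 ± 0.37 (SD, n = 4), an FC of 2.01 (limma adjusted p = 0.00200). P005165, at the other end of the window, had ratios of 0.92, 1.28, 0.99 and 1.16, with a mean of 1.09 ± 0.17. Its control signals were 33.9, 22.2, 42.6 and 17.6, well above background on 2 of the 4 arrays only, so it was tested through the HMB-treated channel and its ratio is given as measured. Over the 4 probes with both channels above background the means ran from 0.69 (P000903, FC 1.62) to 1.01, and the limma adjusted p from 0.00200 to 0.0064. Averaged over all 8 tested probes, the arrays gave 0.89, 1.08, 1.18 and 0.63, with a mean of 0.94 ± 0.24. This average is a description only, because it includes the 4 probes tested through the HMB-treated channel, in which they were high.

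The ratios of *vegfa* probes from both ends of the window overlapped. The 5 probes that start 22 to 26 bases into the window had mean ratios of 0.69 to 1.11, and the 3 tested probes that start 0 to 6 bases into it had 0.83 to 1.09. These 3 probes, and P000905 among the 5, were tested through the HMB-treated channel, in which they were high. The overlap is therefore a description only. The remaining probes, P005162 and P005164, were not tested, because Cy3 was well above background on 1 array and Cy5 on 3. Their ratios were 1.15, 1.49, 1.91 and 0.61 for P005162 and 0.86, 2.13, 1.87 and 1.04 for P005164, all above 0 and more scattered than those of the tested probes. On P005161, array 3 stood apart in Cy3, at 97.8 beside 31.6 to 49.5 on the other arrays, and its ratio there was 0.47 beside 0.75 to 1.24. The *vegfa* signals lay between below the limit of detection and a few times above it. With normexp and loess in place of the deposited subtraction and normalization the 8 ratios were 0.19 to 0.32 and none was called, and with loess on uncorrected signals they were 0.31 to 0.47 and 5 were called. With loess on the deposited background-subtracted signals they were 0.76 to 1.16 and all were called. Normexp added an offset of 50 to both channels, and the uncorrected signals kept their background. The part of these steps in the changed ratios was not tested.

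**Figure D2:**
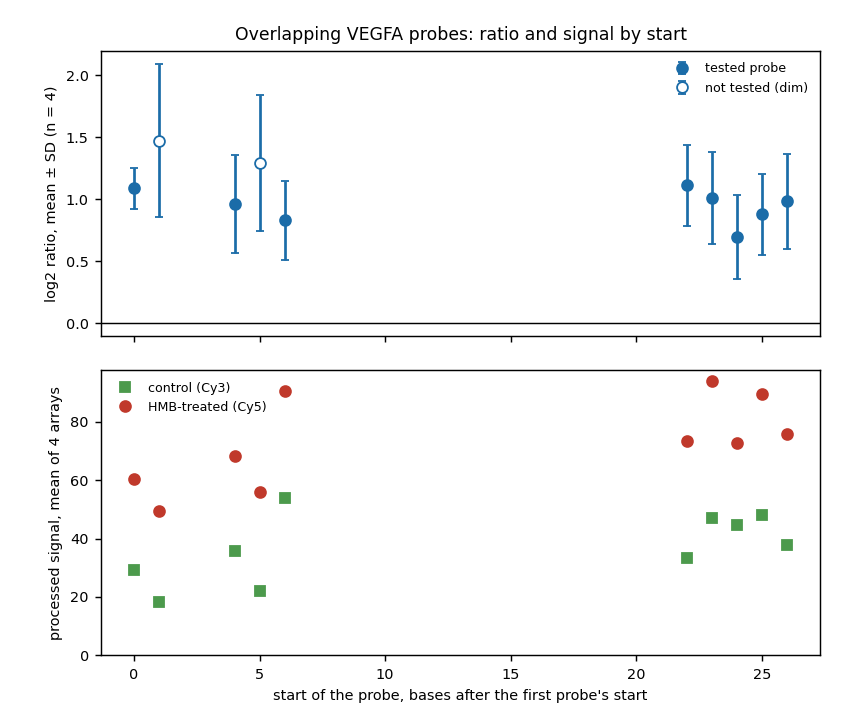
Mean log2 ratio (upper panel, bars are SD over 4 arrays) and mean processed signal in each channel (lower panel, arbitrary intensity units) of the vegfa probes, against the number of bases by which each probe starts after the first. Ratios lie between 0.69 and 1.47 at both ends of the window, and the probes not tested have the lowest control signals, 18.2 and 22.1.

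*vegfb* was detected strongly in both channels and was not called with either probe. P010836 had ratios of -0.16, -0.12, 0.19 and -0.02, from control signals of 14283, 12736, 14374 and 12708, and the channels overlapped. The mean was -0.02 ± 0.16 (SD, n = 4; limma adjusted p = 0.813), with a 95% interval from -0.22 to 0.17, which holds an FC of up to 1.16 downward. P110011, in the coding sequence for the receptor-binding domain at chr12:14899594-14899836, had ratios of -0.43, -0.36, 0.14 and 0.07, with a mean of -0.15 ± 0.29 and an interval from -0.43 to 0.13 (limma adjusted p = 0.336). Arrays 1 and 2 were below 0 and arrays 3 and 4 above it on this probe. The sign of *vegfb* turned with the centring, at 0.19 and 0.04 under median centring without lowess, and scaling to spike-in RNA gave -0.51 and -0.63, which were called.

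*pgf*, placental growth factor, a ligand of FLT1, had ratios of 0.30, 0.22, 0.11 and 0.15. Its control signals were 367, 496, 445 and 251, and its HMB-treated signals 452, 576, 480 and 279. All arrays leaned the same way, by less than the signals differed between arrays. The mean was 0.19 ± 0.08 (SD, n = 4) and the interval 0.04 to 0.35. The limma adjusted p was 0.0471, but the FC of 1.14 was under 1.3, so the probe was not called. Its sign turned to -0.29 with scaling to spike-in RNA.

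*pdgfc*, which encodes a ligand of PDGFRA that is activated by cleavage of its CUB domain, was the member that fell. P088917 had ratios of -0.35, -0.80, -0.74 and -0.72, from control signals of 636, 649, 809 and 678 and HMB-treated signals of 499, 374, 485 and 411. No HMB-treated signal reached the lowest control signal, and array 1 stood nearest to 0. The mean was -0.65 ± 0.20 (SD, n = 4), an FC of 1.57 downward (limma adjusted p = 0.00208). P088916 gave -0.25, -0.66, -0.51 and -0.48, with a mean of -0.48 ± 0.17 and an FC of 1.39 downward (limma adjusted p = 0.00454). The probe P116811, named as *pdgfc* in its description only gave -0.51, -0.53, -0.40 and -0.58, with a mean of -0.51 ± 0.08 and an FC of 1.42 downward (limma adjusted p = 0.00130). All 3 probes were below 0 on all arrays. They lay on the plus strand at chr2:62864971-62865030, chr2:62865035-62865094 and, for P116811, chr2:62866020-62866079. With limma's treat, which asks whether the FC exceeds 1.3, the calls of all 3 probes were lost, with adjusted p from 0.0850 to 0.654. Under median centring without lowess, P088916 (-0.33) and P116811 (-0.31) were not called either, and P088916 also lost its call with normexp and loess (-0.31) and with loess on uncorrected signals (-0.33).

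The PDGF receptors were measured at low signals. *pdgfra*, the receptor for PDGF-C, rose. P110266 had ratios of 1.44, 1.73, 1.66 and 1.15, from control signals of 36.3, 31.7, 34.2 and 28.4 and HMB-treated signals of 98.4, 105, 108 and 62.9. Both channels were well above background on all arrays, and they did not overlap. The mean was 1.49 ± 0.26 (SD, n = 4), an FC of 2.82 (limma adjusted p = 1.53e-04). On P083756, at chr3:71550691-71550750, the control was not well above background on any array, at 9.43, 7.96, 25.5 and 22.7, while the HMB-treated group gave 54.2, 61.9, 82.7 and 60.5. As a mean over the 4 arrays, the HMB-treated group stood 2.90-fold above a bound on the control there. This bound sets the control on each array at the higher of its own signal and the lowest signal well above background. It holds for the mean only, and on array 4 the measured log2 ratio was 1.41. The lowest signal was taken over all probes, so it is no strict limit for this probe. The signals in the bound, unlike those printed, were taken after the arrays were set to a common intensity distribution. This probe was tested through the HMB-treated channel only, and its call is given no weight. The ratio of P110266 was 0.47 with normexp and loess, 0.65 with loess on uncorrected signals and 1.53 with loess on the deposited background-subtracted signals, and it was called each time.

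*pdgfrb*, which encodes the receptor for PDGF-B that pericytes carry, had ratios of -0.04, -0.13, 0.07 and 0.27, with control signals of 141, 149, 134 and 92.4 and HMB-treated signals of 136, 136, 141 and 111. The channels overlapped and the arrays differed in sign. The mean was 0.04 ± 0.17 (SD, n = 4; limma adjusted p = 0.724), with an interval from -0.16 to 0.24. Scaling to spike-in RNA turned it to -0.45, which was called lower, and leaving out array 4 turned it to -0.04.

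*angpt1*, which encodes the TEK agonist, was not tested. On P044376, at chr9:47071164-47071223, the control signals were 4.33, 5.12, 5.34 and 4.73, none of them well above background, and the HMB-treated signals were 39.3, 43.1, 39.9 and 21.1, of which 3 were. On array 4 neither channel was well above background, so no bound holds over all arrays and no fold is given. On P044377, at chr9:47071224-47071283, neither channel was well above background on any array, at 4.81 to 11.2 in Cy3 and 16.1 to 27.5 in Cy5, and no fold is given. When the filter on dim probes was dropped, both *angpt1* probes and both untested *vegfa* probes were called higher, with limma adjusted p from 0.00841 to 0.0440.

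**Figure D3:**
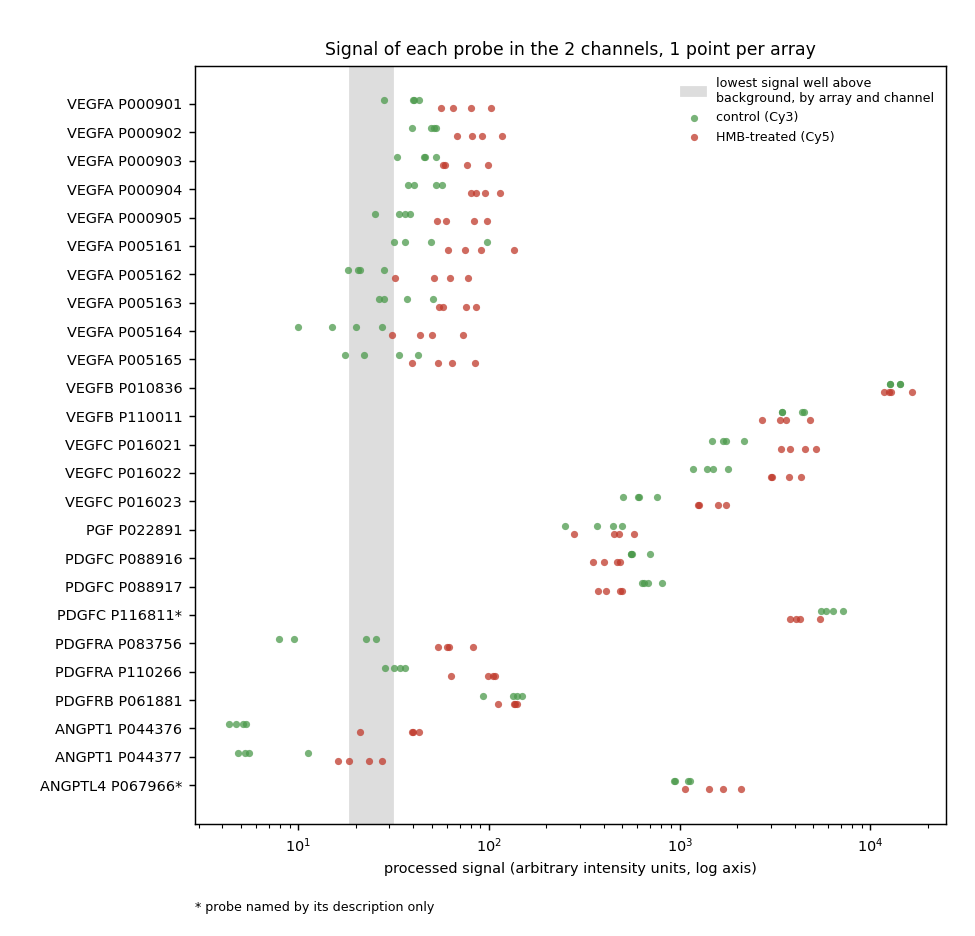
Processed signal of each probe on each array (arbitrary intensity units, log axis), control in green and HMB-treated group in red, with the range of the lowest signals counted as well above background shaded. The shaded range was taken after the arrays were set to a common intensity distribution, and the points before it. The vegfa, pdgfra and angpt1 probes lie in or near the shaded range, whereas the vegfc, vegfb and pdgfc probes lie well to the right of it.

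*angptl4* was read by 1 probe, P067966 (chr7:2233099-2233158, plus strand), named by its description, and its sequence, from the coding part of the fibrinogen-like domain, is shown because no symbol in the files vouches for it:
angptl4 P067966: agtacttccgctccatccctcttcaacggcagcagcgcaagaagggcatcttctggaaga
Its ratios were 0.56, 0.59, 0.92 and 0.18, from control signals of 1138, 948, 1105 and 938 and HMB-treated signals of 1681, 1427, 2095 and 1063. All arrays were above 0, and array 4 stood lowest, with a signal inside the range of the controls. The mean was 0.56 ± 0.30 (SD, n = 4), an FC of 1.48 (limma adjusted p = 0.0101), and the probe was called higher. It was not called with treat (adjusted p = 0.444), with the test of the study's methods (adjusted p = 0.0811), with no filter on dim probes (adjusted p = 0.0700) or with scaling to spike-in RNA, where its ratio was 0.08.

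Other genes of the same families were taken from lists, each gene by its tested probe with the brightest signal. Of the 13 other ligands listed, 11 were on the array and 4 were tested. *angpt4* was higher, at 0.80 ± 0.20 (SD, n = 4; limma adjusted p = 8.49e-04), and *angptl2* was lower, at -0.44 ± 0.16 (limma adjusted p = 0.00521). *figf* (VEGF-D, a lymphangiogenic ligand) had a measured ratio of 1.02 ± 0.40 and *angptl1*, named after its value was seen, 0.72 ± 0.40. Both were tested through the HMB-treated channel, with the control well above background on 1 array for *figf* and on 2 for *angptl1*, so their calls are given no weight. *pdgfb*, *pdgfd* and *angpt2* were not well above background in either channel on any array.

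Of the 8 other receptors and co-receptors, 3 were tested. The VEGF receptors *flt1*, *kdr* and *flt4* were not well above background in either channel on any array, and the angiopoietin receptor *tek* and its relative *tie1* reached it on 1 array in Cy5 only. The co-receptors *nrp1* (-2e-04 ± 0.46) and *nrp2* (0.18 ± 0.31) were not called. *pdgfrl*, a receptor-like gene named here by its description only, was higher, at 0.57 ± 0.28 (SD, n = 4; limma adjusted p = 0.00717). Of the proteases and cofactors that process the ligands, 4 were tested and 2 were higher, beside 10.0% of all tested symbols. *adamts3*, which encodes a protease that cleaves pro-VEGF-C, was at 0.59 ± 0.14 (limma adjusted p = 0.00141), and *plat*, whose product cleaves PDGF-C, at 0.62 ± 0.21 (limma adjusted p = 0.00287). *pcsk7* and *plau* were not called.

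Of the antagonists of angiogenesis, 8 were tested, none was higher and 2 were lower, with a median of -0.0036, beside 17.2% of all tested symbols lower. *vash2*, a vasohibin that is itself known to promote angiogenesis although it stands on this list, was at -0.98 ± 0.10 (SD, n = 4; limma adjusted p = 1.31e-04), and *sparc*, which encodes a matrix protein that binds VEGF and PDGF, at -0.63 ± 0.21 (limma adjusted p = 0.00245). Of the hypoxia-responsive genes, among which *vegfa* and *angptl4* are usually counted, 15 were tested, 5 were higher and none was lower, with a median of 0.34, beside 10.0% higher and 17.2% lower among all tested symbols. *epas1* (HIF-2α) was at 1.301 ± 0.14 (limma adjusted p = 5.94e-05) and *slc2a1*, a glucose transporter gene, at 1.26 ± 0.22 (limma adjusted p = 1.77e-04). The other 3, *hmox1* (1.12), *ndrg1* (0.65) and *egln3* (0.39), are named after their values were seen, and *pgk1* (-0.02 ± 0.12) and *aldoa* (-0.18 ± 0.09) were not called. Of the PPAR targets and lipase genes, among which *angptl4* also belongs, 6 were tested, 1 was higher and none was lower, beside the same 10.0% and 17.2%. The gene called was *cpt1a*, at 0.74 ± 0.08 (limma adjusted p = 3.26e-04), while *lpl*, *lipg* and *pdk4* were not tested.

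**Figure D4:**
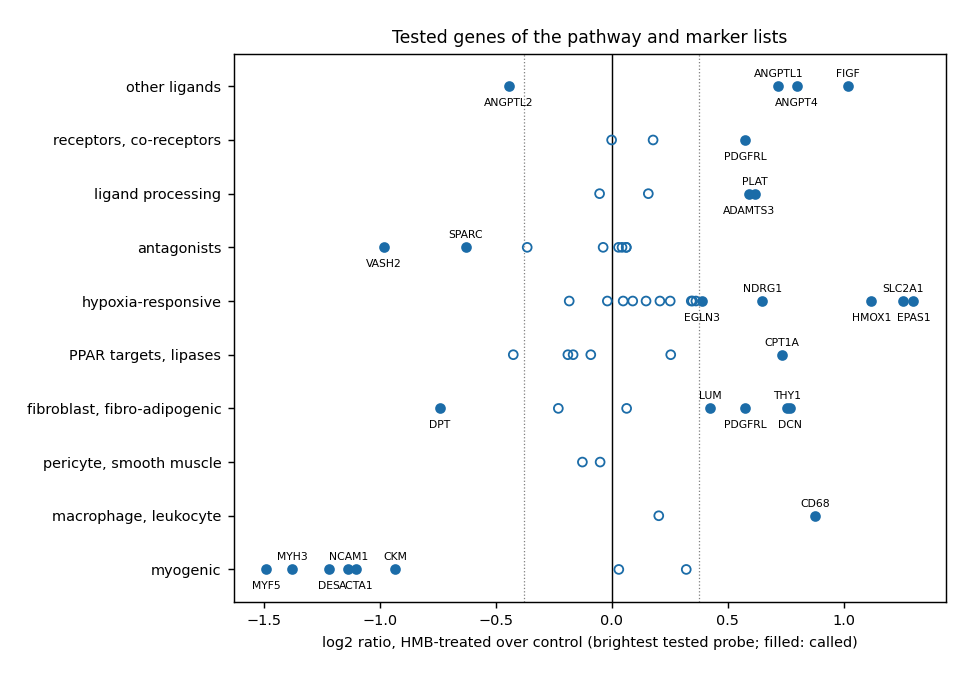
Log2 ratio of the HMB-treated group over the control for the tested genes of each list, each by its tested probe with the brightest signal (filled points are called, and dotted lines mark an FC of 1.3). Called genes are named, the 5 called hypoxia-responsive genes lie at 0.39 or above, and 6 of the 8 myogenic genes lie between -1.49 and -0.93.

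Markers of cell types were set beside the receptors, because *pdgfra* and *pdgfrb* differ between the cells of muscle. The cultures expressed the myogenic markers, with all 8 on the array tested, and 6 of them were lower in the HMB-treated group, beside 17.2% of all tested symbols, with a median of -1.12. *myf5* was at -1.49 ± 0.34 (SD, n = 4; limma adjusted p = 3.21e-04) and *myh3* at -1.38 ± 0.33 (limma adjusted p = 4.03e-04), and *myog* and *myod1* were not called. The summed signal of this list was 179716 in the control and 78363 in the HMB-treated group. In the control, *myh3* gave 83384 and *acta1* 65981 of this sum. Of the fibroblast and fibro-adipogenic markers, 7 were tested, 4 were higher and 1 was lower, with a median of 0.42, beside 10.0% higher and 17.2% lower among all tested symbols. *dcn* was at 0.77 ± 0.18 (limma adjusted p = 8.22e-04), *thy1* at 0.76 ± 0.12 (limma adjusted p = 4.41e-04) and *dpt* at -0.74 ± 0.34 (limma adjusted p = 0.00514), and the other 2 that were higher, *lum* (0.42) and *pdgfrl* (0.57), are named after their values were seen. The value of *pdgfrl* is the one already given among the receptors, since the gene stands on both lists. *col1a2* and *col3a1* were not called, and the summed signal of the list was 465789 in the control and 482229 in the HMB-treated group. In the control, *col1a2* gave 252240 and *col3a1* 146273 of this sum, so it says little about the other genes of the list. The part of these shifts in the rise of *pdgfra* was not tested, and in such bulk samples fewer cells of a type and less RNA per cell cannot be told apart.

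Of the remaining marker lists, the endothelial one gave little signal. In the other lists *acta2* and *cd14* had mean control signals of 11173 and 3992. None of the 9 endothelial markers on the array was tested, and 7 of them, *pecam1*, *cdh5* and *vwf* among them, were not well above background in either channel on any array. The summed signal of the list was 94.2 in the control and 145 in the HMB-treated group. These sums add values at or near background, and their difference is not read as a change. Of the pericyte and smooth muscle markers, *acta2* (-0.05 ± 0.32) and *cspg4* (-0.13 ± 0.38) were tested and neither was called, and *rgs5* was not well above background. Of the macrophage and leukocyte markers, *cd68* was higher, at 0.88 ± 0.20 (SD, n = 4; limma adjusted p = 6.30e-04), *cd14* (0.20 ± 0.19) was not called, and *aif1* and *itgam* were not well above background.

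Of the genes called, *vegfc* and *pdgfra* kept their calls under each way of processing that tested their probes, with ratios of 0.75 to 1.44 over the 3 *vegfc* probes and 0.47 to 1.61 for the *pdgfra* probe P110266. The *pdgfc* probe P088917 lost its call with treat only. *vegfa* kept its call on the brightest probe except with normexp and loess, and the same held for P000901 and P000902. P000903, which also had both channels well above background, lost its call in 6 of 19 alternatives. Treat, the test of the study's methods and scaling to spike-in RNA were among them. The genes that were not called, *pgf*, *vegfb* and *pdgfrb*, were those whose sign depended on the centring or the scaling.

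**Figure D5:**
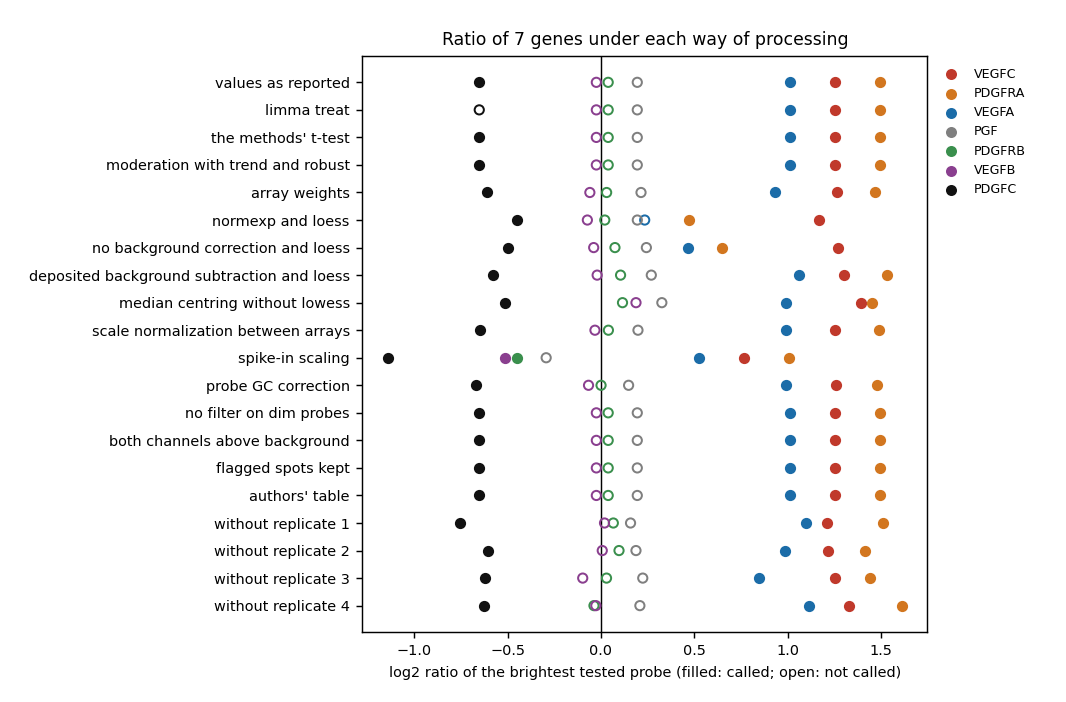
Log2 ratio of the tested probe with the brightest signal of each of 7 genes under each way of processing (filled points are called, open points are not). Scaling to spike-in RNA moves all genes to the left, and vegfa and pdgfra lie nearer to 0 with loess after normexp or on uncorrected signals, but not with loess on the deposited background-subtracted signals, while vegfc stays at 1.17 or above in all 3.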

How the data were processed

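Total RNA with a RIN of 9.2 or more was amplified, labelled and hybridised to 4 two-colour Agilent horse arrays, HMB-treated group in Cy5 and control in Cy3. For the intensity values, the authors extracted each spot with Feature Extraction (version 10.10.1.1 per the file headers), subtracted the background and normalized each array by its linear and lowess steps. The deposited log10 ratios of Cy5 over Cy3 were changed to log2 ratios here, and the authors' table held the same ratios (largest difference 3.96e-05 on the log10 scale). The ratios reported were not normalized between arrays, and the number of arrays limits the precision. For the lowest signals well above background and for the bound on *pdgfra*, mean intensities were set to the same distribution on all arrays (Aquantile in limma). Positions are on EquCab1, per the file headers.

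Control spots were left out, as was any spot with a mark for uneven pixels or for a population outlier, and repeated spots of a probe were averaged. The ratios were tested in R 4.3.3 with limma 3.58.1 (intercept, empirical Bayes), with Benjamini-Hochberg correction over all 24669 tested probes, which needed a channel well above background on all 4 arrays and at least 3 ratios. The script was tested on simulated data. Between 55.2% and 61.8% of probes were well above background by channel and array, and the arrays correlated at r of 0.837 to 0.920 over tested probes. Intervals are the model's 95% confidence intervals.

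Members were every probe whose symbol equalled a listed gene; probes named by description only were kept apart. The genes named from a list were its 2 called genes that rose most and its 2 that fell most, and all called receptors. Members and lists were chosen with earlier results of these data known. Alternatives were treat, the methods' t-test, moderation with trend, array weights, normexp (offset 50) or no background correction, each with loess, loess on the deposited background-subtracted signals, median centring, scale normalization, spike-in scaling, a GC correction, other filters, the authors' table, and leaving out each array.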

Additional observations from a re-analysis of the deposited data

Results flagged for a closer look

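Of 42 items examined for 1 array far from the other 3, the *pdgfc* probe P088917 was past the critical value of Dixon's test at 95%, with a gap of 0.834 of the whole range. Array 1 was at -0.35 and the other arrays at -0.72 to -0.80. Chance marks about 1 in 20 such items. Without array 1 the mean log2 ratio of this probe was -0.75.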

How the results depend on the processing

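Over all tested probes, 7046 were called as reported, 2822 with treat, 3538 with normexp and loess, 4439 with loess on uncorrected signals (below, normexp and no background correction), 5030 with the methods' t-test after Benjamini-Hochberg correction and 18570 with spike-in scaling. Calls higher were 2996 as reported and 1542, 1945, 4672 and 1247 with treat, normexp, median centring and spike-in scaling; calls lower were 4050 as reported and 1280, 1593, 1770 and 17323 with treat, normexp, no background correction and spike-in scaling. The share of higher among called probes was 42.5% as reported, 54.6% with treat, 55% with normexp, 60.1% without background correction, 61.6% with median centring, 53.1% with loess on the deposited background-subtracted signals and 6.72% with spike-in scaling. Of the member probes, 15 were called as reported and 6 with normexp; calls higher were 5 with normexp and 8 where both channels had to be above background, and calls lower were 0 with treat, 1 with normexp, without background correction or with median centring, and 5 with spike-in scaling. Member genes called lower were 0 with treat and 3 with spike-in scaling. Signs turned for *pdgfrb* (-0.45 with spike-in scaling, -0.038 without array 4, in a range of -0.038 to 0.10 when 1 array was left out), *pgf* (-0.29 with spike-in scaling) and *vegfb* (P010836 at 0.19 and P110011 at 0.04 with median centring, P010836 at 0.019 without array 1 and 0.0069 without array 2, in a range of -0.10 to 0.019 when 1 array was left out). Leaving out 1 array changed the call of no member probe. Of 394 results of member probes and of the probes named by description under alternatives, 290 kept the call and 67 stayed uncalled with the same sign, 28 lost the call, 2 gained it with the same sign, and 7 turned in sign, of which 1 gained a call. The cause of these changes was not tested. The spike-in scaling used the intercept of the spike-in fit in the file headers, 0.37 to 0.57 on the log2 scale, and it and the loess on background-subtracted signals were chosen after seeing the data. The dim signals of *vegfa*, *pdgfra* and *angpt1* limit how firmly their sizes can be given. No paired analysis was possible because each ratio already pairs the RNAs of 1 array and the arrays form 1 group.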
